A study of Homo sapiens with 93 samples.

Results

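The 150 features described here are those whose H3K36me3 level, over 93 human lymphoblastoid cell lines, reached furthest above the median line in the upper 10% of lines. They were chosen from the deposited count table by 1 ratio. Counts were scaled by the library total to CPM, and the 90th percentile of CPM over the lines was divided by the median CPM plus 0.1. Of 14000 features, 12133 could be ranked. Left out were features with a mean count under 50, the table rows after 1900 and up to 3200, which the rule sets aside as a technical step in the table, and 2 identifiers. The 150 highest ratios make the set, 1.24% of the ranked features. The values that chose them are given as a description and are not tested.

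All libraries belong to 1 group. Each is from a different lymphoblastoid line, B cells immortalised with Epstein-Barr virus, profiled once by CUT&Tag, in which an antibody brings a transposase to chromatin and the cut DNA is sequenced. No line was treated, and there is no control group, input or second library of a line, so differences between lines hold line, culture and technical differences together. Per the labels' protocols the lines were grown in several batches, and the labels do not say which line was in which. Library totals ran from 2842955 to 24325746 counts, with a median of 14883653.

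H3K36me3 is trimethylation of lysine 36 on histone H3. The methyltransferase SETD2 writes it while travelling with elongating RNA polymerase II, so the mark builds up over the bodies of transcribed genes and is low over silent ones. Lymphoblastoid lines carry an activated B cell programme driven by viral proteins, and lines from different donors are known to differ in how strongly parts of it are expressed. None of the 14000 Ensembl identifiers could be paired with a gene symbol. The RefSeq gene table at hand held no Ensembl identifiers, so 0 matched, and the deposited tables hold identifiers alone. The members are therefore named by rank, 1 having the highest ratio, and 4 are also given by identifier, chosen after their values were seen. Gene roles, B cell and other cell type markers, gene lengths, positions and promoter sequences could not be assigned, and the labelled cell type was not checked against markers.

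The ratio of the members ran from 1.70 to 3.80, with a median of 1.83, against a median of 1.25 over all ranked features. Just inside the limit, the 5 lowest-ranked members had ratios of 1.71 to 1.70, and the 5 features next below them had 1.70 each. The boundary thus falls within a continuous range. Median CPM of the members ran from 2.89 to 379 (median 35.4, against 45.8 over all ranked features). With ranked features split by mean count into 5 bins, the lowest bin held 46 members, and the others, in rising order, 20, 26, 31 and 27. Counting error accounted for a median of 1.02% of the members' variance in CPM, under 5% in 131 of them and over 10% in 5, when it is taken as Poisson. PCR reads are not independent molecules, and this share and the intervals below cover counting error only.

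ENSG00000196126.11, rank 1, had the highest ratio, 3.80. Its level was 1.57 CPM in the lowest line, 7.39 in the median line and 48.5 in the highest, where the exact Poisson 95% interval was 42.6 to 54.9. Here and below, multiples of a median are of the median CPM plus 0.1, as in the ratio. It lay over 3 times its median in 18 lines and over 2 times in 26, so its high lines were not few. ENSG00000090530.10, rank 2, ran from 24.8 CPM through a median of 64.02 to 386 (interval 375 to 397). It exceeded 3 times its median in 12 lines and 2 times in 22. Rank 3 (14.9 CPM lowest, 47.7 median, 218 highest) did so in 11 lines, and rank 4 (22.3, 127 and 977 CPM) in 8 lines. Ranks 1 to 3 had no gap over 0.5 log2 among their upper lines, and the widest were 0.29, 0.34 and 0.18. In rank 4, 4 lines lay above a gap of 0.53 log2. Rank 1 had 1 line set apart at the low end, below a gap of 0.89 log2.

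**Figure D1:**
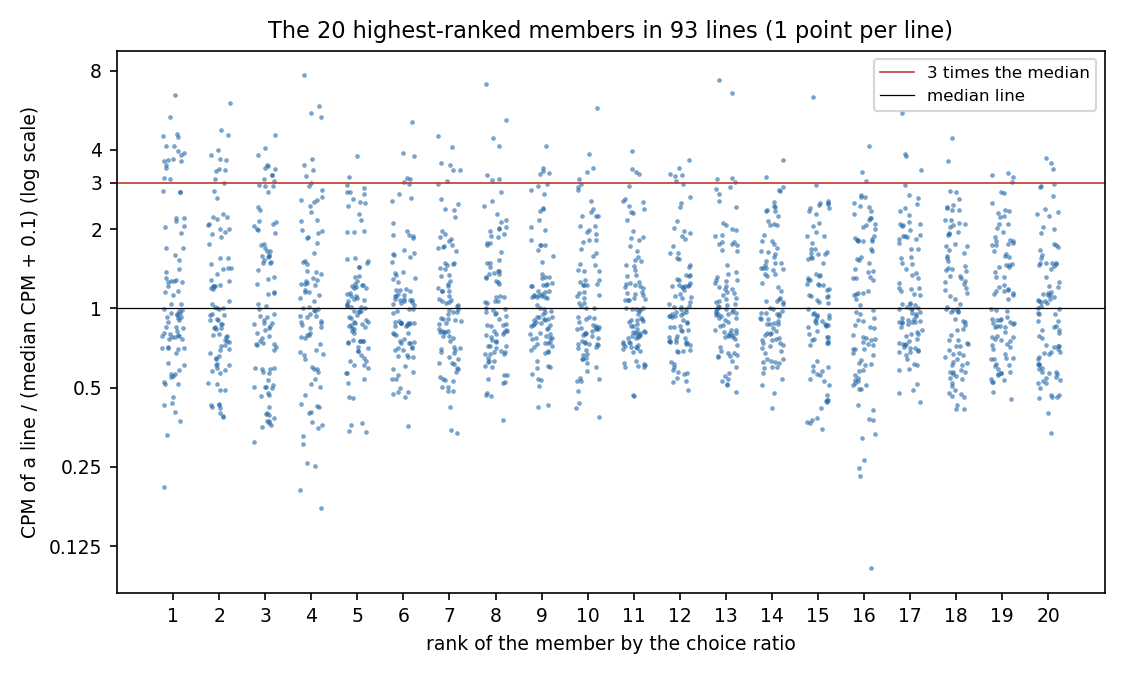
Level of the 20 highest-ranked members in each of 93 lines (1 point per line) as CPM divided by the median CPM plus 0.1, on a log axis, against rank; lines at 1 and 3 mark the median and 3 times it. Rank 1 has 18 lines over 3 times its median and rank 15 has 1, far above its other lines.

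The name the set was given, features marked highly in few lines, held for part of it. A line over 3 times the median was found in 78 of 150 members, against 1.14% of all ranked features, a contrast fixed by the choice from which nothing is read. In 72 members no line went that far. Of the 78, 59 had 1 to 3 such lines and 19 had 4 or more. The 72 had a median ratio of 1.78 and a median highest level of 2.58 times the median, the 59 had 1.84 and 3.57, and the 19 had 2.37 and 5.52. Over 5 times the median was reached by 16 members (0.173% of ranked features). All 150 had a line over 2 times the median (11.4% of ranked features), in a median of 7 lines and at most 26. The 9 highest lines held a median of 19.7% of a member's summed CPM, against 13.1% over all ranked features.

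A single line set far apart was the pattern of 20 members. In 22 of 150 members the upper lines were split by a gap over 0.5 log2 (1.07% of ranked features), and in 20 of these 1 line stood above the gap. The widest gap was in rank 131, 1.34 log2. That member ran from 1.71 CPM through a median of 8.99 to 69.5 CPM in its highest line (interval 64.9 to 74.3), 7.64 times its median plus 0.1, and had 2 lines over 3 times it. Rank 41 reached furthest above its median of all members, at 52.2 CPM (interval 47.6 to 57.1) against a median of 4.81, which is 10.6 times its median plus 0.1. Rank 13 was 1 of the 2 members with more than 1 line above such a gap: 2 lines stood above 1.07 log2, and its highest was 442 CPM against a median of 59.97.

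The members also spread below their median. The rule used the median but not the lines below it. A choice for wide spread above the median can also favour features that vary widely on both sides. The contrasts that follow are therefore descriptions. The median divided by the 10th percentile was 1.68 in the median member, against 1.30 over all ranked features, and 97.6% of ranked features lay below 1.68. A line under 0.5 times the median was found in 140 of 150 members, against 28.5% of ranked features. In all, 1142 pairs of member and line lay over 2 times the median and 810 under 0.5 times it. More lines lay under 0.5 times than over 2 times the median in 35 members, and equally many in 13. The lower side was the wider one, as a ratio, in 32 members (21.3%), against 71.4% of ranked features, a contrast that the choice by the upper side favours.

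**Figure D2:**
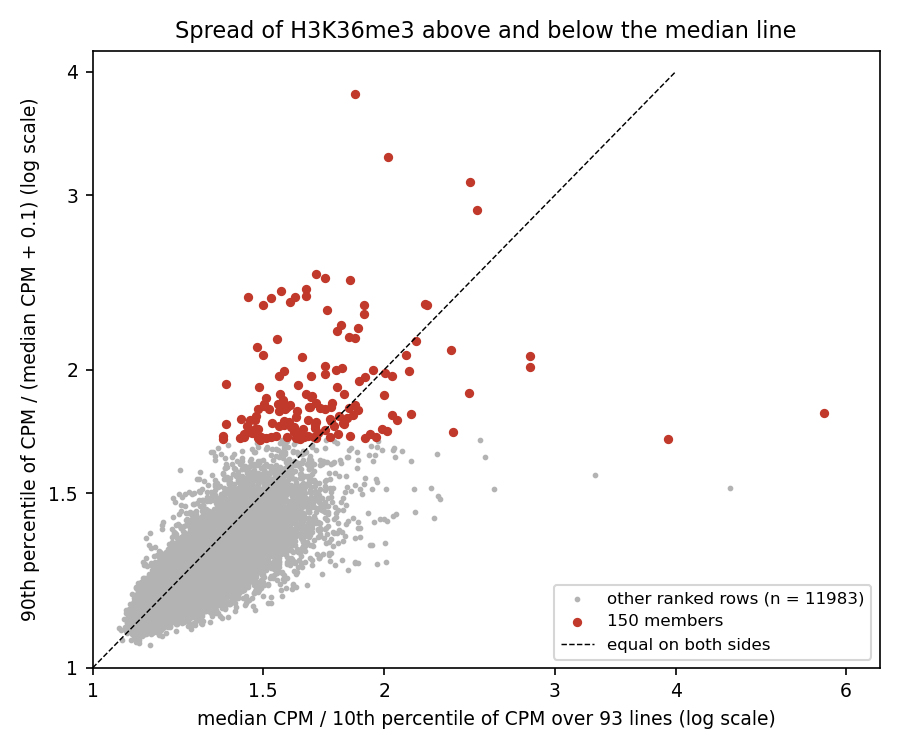
Spread above the median (90th percentile over median plus 0.1) against spread below it (median over 10th percentile) of CPM over 93 lines, both on log axes, for 150 members (red) and all other ranked features (grey). The members form the top of one continuous cloud, and 2 of them lie far to the right, with median over 10th percentile of 5.69 and 3.93.

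A pair of members went against the name: they were low in a minority of lines. ENSG00000196735.13, rank 83, ran from 2.79 CPM through a median of 29.5 to 80.95, and its 10th percentile was 5.19. Below a gap of 0.56 log2 stood 20 lines, and 22 lines were under 0.5 times its median, while no line exceeded 3 times it. ENSG00000134184.13, rank 147, ran from 4.11 CPM through a median of 21.998 to 44.9, with 19 lines below a gap of 0.58 log2 and the same number under 0.5 times the median. It had 1 line over 2 times the median. In both, the lines fell into a low and a high set, and the median line belonged to the high one. A gap over 0.5 log2 among the lower lines was seen in 19 members (3.84% of ranked features), in 15 of them with 1 line below it and in 2 others with 2 lines below it. Rank 100 was at 0 counts in 1 line, against a median of 4.97 CPM.

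Raised members were spread over many lines, with 1 line apart. A member over 3 times its median was found 215 times, in 68 of 93 lines. The number per line ran from 0 to 22 with a median of 1, and the next highest line had 9. The line with 22 held 10.2% of all 215 cases, and the 9 lines with most held 39.1%. The same line had 42 members over 2 times their median, the most of any line, and 25 under 0.5 times. It was the highest line for 15 members, while 61 lines were the highest for at least 1. Its library total was 12133773 counts, the 39th of 93 from the shallowest. Without it, 72 members in place of 78 had a line over 3 times the median (124 in place of 138 ranked features). Among features that are not members, the number over 2 times their median ran from 0 to 308 per line with a median of 11. The line with 22 raised members had 57, above that median and below the highest. Over 3 times the median it had 32 ranked features, members included, the most of any line.

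**Figure D3:**
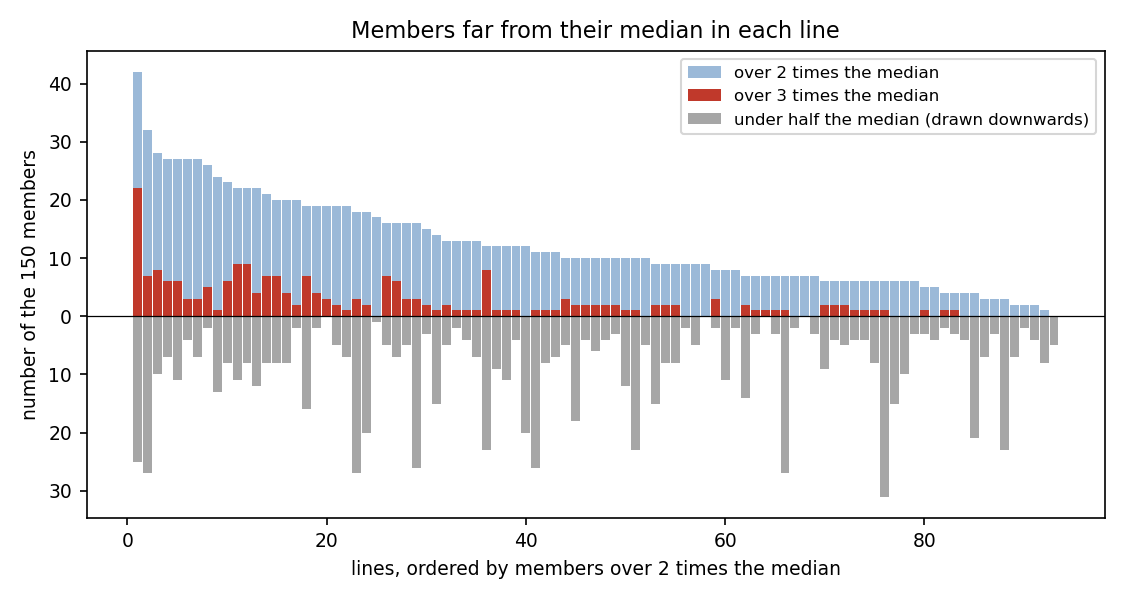
Number of the 150 members over 2 times (blue) and over 3 times (red) their median in each of 93 lines, and under 0.5 times it (grey, drawn downwards), with lines ordered by the blue count. One line has 42 members over 2 times and 22 over 3 times the median; the next has 32 over 2 times.

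The number of raised members per line was set against depth and dynamic range, 2 measures of a library. Dynamic range is how far, in log2 CPM, the median of the 20% of features with the highest mean level lies above the median of the lowest 20%, members left out. Since raised levels chose the members, the correlations are a description over 93 lines, without p-values. With log2 library total, Pearson's r was -0.117 and Spearman's rho -0.216, and r was -0.123 without the 2 most distant libraries. Within the 46 shallower libraries r was 0.0368 (rho = -0.161), and within the 47 deeper ones -0.0829 (rho = -0.1). For members over 2 times the median r was -0.329 (rho = -0.319), and for features that are not members, counted in the same way, it was -0.267 (rho = -0.346). With dynamic range r was 0.0221 (rho = 0.0537), 0.0502 without 2 libraries, -0.129 in the shallower libraries and 0.128 in the deeper ones.

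The members' own levels were then tested along library total and dynamic range, which the rule did not use, with edgeR's quasi-likelihood test fitted on 13915 features and Benjamini-Hochberg adjustment over all of them. Effects are log2 changes per SD of the measure over the 93 lines, each adjusted for the other. Along library total 51 of 150 members passed, against 65.9% of all features. Of these, 5 were higher in deeper libraries (29.2% of all features) and 46 lower (36.6%). The median member changed by -0.09 log2 per SD, against -0.02 over all features. Without sign, the median change was 0.110 in members and 0.086 over all features. A share called depends on spread between lines as well as on size of change, and the choice favoured wide spread. Wide spread can also enlarge a change without sign. The lowest adjusted p among members was that of rank 124, which fell by 0.38 per SD (SE 0.0446, adjusted p = 3.86e-12).

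Along dynamic range 75 members passed, against 80.1% of all features. With it 16 rose (44.5% of all features) and 59 fell (35.6%), and the median member changed by -0.10 log2 per SD, against 0.03 over all features. Without sign, the median change was 0.152 in members and 0.129 over all features. Rank 87 fell by 0.45 per SD (SE 0.0443, adjusted p = 4.52e-16), the lowest adjusted p among the members. Ranks 1, 2, 83 and 147 passed neither test, with adjusted p from 0.0891 to 0.902 for library total and 0.151 to 0.868 for dynamic range.

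Some members rose and fell together across the lines. Over 11175 pairs of members the Pearson correlation of log2 CPM had a median of 0.05 (0.02 with library total and dynamic range removed) and central 90% from -0.42 to 0.54, narrower than the -0.55 to 0.62 of all pairs of ranked features. With library total and dynamic range removed, the ranges were -0.45 to 0.51 for members and -0.37 to 0.39 for all ranked features, so the members then had the wider one. An r over 0.5 was found in 6.51% of member pairs and 9.58% of all ranked pairs, or 5.40% and 2.16% with both measures removed. Counting error, which can lower a correlation, was a median of 1.02% of variance in members and 6.62% over ranked features. As the choice favoured wide spread, these contrasts are not read as a trait of the set. All pairs share the same 93 libraries. Joining members by average linkage at a mean r of 0.4, a limit chosen after the values had been seen, gave 5 groups of 5 or more that held 80 members, and left 31 members alone. These groups rest on the values that chose the members and get no test of their own. Other ranked features were not grouped in the same way, so the grouping is not read as a trait of the set.

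Group 1 had 32 members with a mean r of 0.527 among them (0.492 with library total and dynamic range removed). It held ranks 2, 3, 6, 7, 9, 10, 13, 14 and 17 among the 20 highest. Its median CPM ran from 2.89 to 283, and 27 of its 32 members had a line over 3 times the median. It accounted for 92 of the 215 raised cases, 18 of them in the line with 22 raised members; without that line 22 of the 32 members had such a line and mean r was 0.505. Rank 10, among the highest in level, ran from 96.8 CPM through 251 to 1452. Rank 14 ran from 118 through 283 to 1040. The members lay between rows 1833 and 13360 of the table.

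Group 2 had 22 members with a mean r of 0.547 (0.570 with library total and dynamic range removed) and moved against group 1. Rank 15 was its highest-ranked member, at 33.9 CPM in the lowest line, 97.7 in the median and 620 in the highest. Rank 32 ran from 9.96 through 46.6 to 115 CPM and had 23 lines under 0.5 times its median, the most of any member, beside 13 over 2 times. Only 9 of the 22 members had a line over 3 times the median, in 15 cases, none of them in the line with 22 raised members. Of 704 pairs between groups 1 and 2, 684 had a correlation below 0, with a mean of -0.341 (-0.430 with library total and dynamic range removed).

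The mean standardised levels of groups 1 and 2 had r = -0.615 and rho = -0.597 over the 93 lines, -0.576 without the 2 most distant lines and -0.589 without the line with 22 raised members. This is a description, since the groups were formed on the same values. In 32 lines group 1 was above and group 2 below its mean, and in 39 the reverse; both were above in 9 and both below in 13. From the 10th to the 90th percentile of lines, the median member of group 1 ran from -0.57 to 0.78 log2 around its median line, and that of group 2 from -0.66 to 0.72. The line with 22 raised members stood at 1.70 for group 1, the highest, and at -1.14 for group 2. The difference between the 2 group means was also tested in features that are not members, with library total and dynamic range in the edgeR model. Of 13765 such features 4478 passed (32.5%), 2444 in one direction and 2034 in the other. The share was 35.8% without the line with 22 raised members. The difference was formed from member values, and the feature best correlated with a member was another member for only 30 members. Features outside the set that follow members were thus likely to pass. No difference between other groups of features was tested beside it. The test therefore cannot decide how far the contrast extends beyond the members, and the shares are given as a description.

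**Figure D4:**
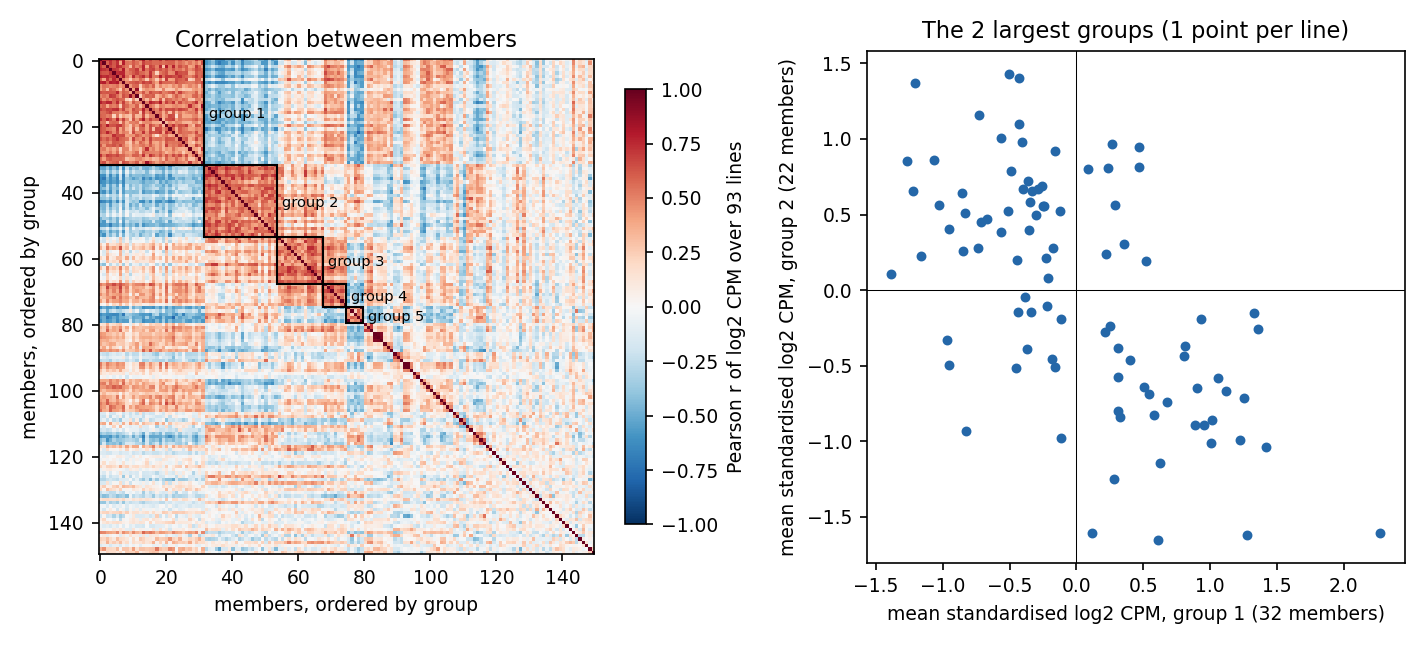
Left, Pearson correlation of log2 CPM over 93 lines between the 150 members, ordered by group, with boxes around groups 1 to 5. Right, mean standardised log2 CPM of group 2 against that of group 1, 1 point per line; 32 points lie where group 1 is above and group 2 below its mean, and 39 where the reverse holds.

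Members of groups 3 and 4 mostly fell along both library measures, and those of group 5 rose with dynamic range. Differences between groups were not tested. The groups were joined by correlation with these measures left in, so members of a group tend to share a direction by construction. Counts within a group are thus not of separate observations, and shares over all features are given for scale only. Over all features, those that define dynamic range included, 35.6% fell and 44.5% rose with it. With library total, 36.6% fell and 29.2% rose. Group 3 had 14 members with a mean r of 0.525, or 0.388 with library total and dynamic range removed. All 14 fell with dynamic range, by a median of 0.27 log2 per SD, and 9 were lower in deeper libraries. Its highest-ranked member, rank 12, ran from 14.0 CPM through 28.4 to 105. Group 4 had 7 members, 6 of which fell with dynamic range, by a median of 0.28, and 6 with library total. Group 5 had 5 members, and all 5 rose with dynamic range, by a median of 0.25 log2 per SD. Among them were ranks 61 and 136, which had r = 0.998 with each other and so hardly count as separate features. In group 1, 18 of 32 members fell with dynamic range and none rose, and 4 fell with library total, a smaller share than over all features. In group 2, 5 of 22 fell with dynamic range and none rose, also a smaller share, while 9 fell with library total, a share near that of all features, and 1 rose. The part of these measures in the co-variation was not tested beyond the correlations given with both removed.

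Cell cycle marker levels were also tested, as the one set of named functions that could be matched by identifier. The mean standardised level of 94 G1, 89 S or 92 G2M markers that are not members was added to the model with library total and dynamic range, and each set's own markers were left out of the counts. Along the G2M level, 35 of 149 members passed (34.4% of all features), 10 higher (18.6%) and 25 lower (15.8%). Along the G1 level, 39 of 149 passed (50.1%), 12 higher (26.9%) and 27 lower (23.2%). Along the S level, 6 of 149 passed (11.7%), none higher (9.42%) and 6 lower (2.31%). Without sign, the median log2 change per SD of G2M was 0.148 in members and 0.071 over all features. For G1 it was 0.157 and 0.087, and for S 0.083 and 0.039. Since wide spread, for which members were chosen, can by itself enlarge a change without sign, these contrasts are not read as a closer tie to the cell cycle. With 5 principal components added, 2, 3 and 1 members passed for G2M, G1 and S, and the shares of all features fell as well, to 3.32%, 4.25% and 3.06%. The medians without sign were then 0.118 in members and 0.042 over all features for G2M. They were 0.145 and 0.052 for G1, and 0.091 and 0.037 for S.

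By group, 13 of 32 members of group 1 fell with the G2M level and none rose, with a median of -0.22 log2 per SD, while 4 of 5 in group 5 rose, with a median of 0.26 (15.8% of all features fell and 18.6% rose). Along the G1 level, 11 of 32 in group 1 fell, with a median of -0.22, and 4 of 5 in group 5 rose, with a median of 0.32 (23.2% and 26.9% of all features). The G1 and G2M levels had r = 0.926 with each other over the lines, and 0.786 and 0.788 with dynamic range, so these counts are not particular to either phase. They are also not counts of separate observations, because correlation between members formed the groups. With 5 principal components added, 3 of all 149 members passed for G1 and 2 for G2M. In group 2, 1 of 22 rose with the G2M level and none fell. ENSG00000090530.10, rank 2, fell by 0.57 per SD of the G2M level (SE 0.174, adjusted p = 0.00797, edgeR). ENSG00000196735.13, rank 83, rose by 0.49 per SD of the G1 level (SE 0.181, adjusted p = 0.0185, edgeR). For ENSG00000196126.11, rank 1, the changes were 0.28 (SE 0.186, adjusted p = 0.204, edgeR) along G1 and -0.09 (SE 0.192, adjusted p = 0.734, edgeR) along G2M. ENSG00000134184.13, rank 147, changed by 0.35 along G2M (SE 0.147, adjusted p = 0.0556, edgeR).

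**Figure D5:**
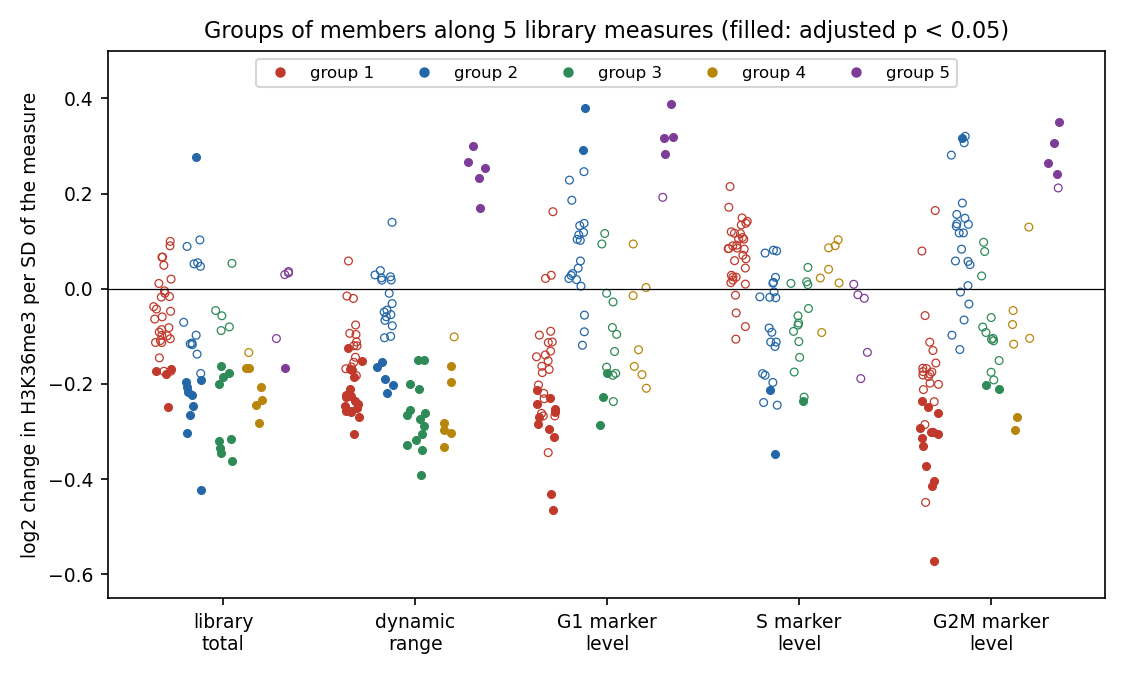
Log2 change in H3K36me3 per SD of library total, dynamic range and the G1, S and G2M marker levels (x axis) for members of groups 1 to 5, 1 point per member, filled where the adjusted p is below 0.05 by edgeR. All 14 points of group 3 are filled and below 0 for dynamic range, and all 5 of group 5 are filled and above 0.

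Neighbouring rows of the table gave some members a close partner. The best match of a member among all 14000 features had a median r of 0.744 (0.385 to 0.998). It was another member for 30 members, an adjacent row for 31, and more than 1000 rows away for 84. An adjacent row with r over 0.5 was found for 44% of members and for 50.5% of ranked features. The files give no coordinates, so whether neighbouring features overlap or share reads is not known. The closest pair, ranks 61 and 136, had r = 0.998 and lay 2 rows apart, with medians of 80.1 and 98.2 CPM. Ranks 64 and 79, the latter among the highest members in level at a median of 379 CPM, had r = 0.984 and lay 10 rows apart. Adjacent rows were occupied by 8 pairs of members, with r from 0.127 to 0.973. Ranks 126, 25 and 77 formed a run of 3 at rows 10402 to 10404, with r of 0.924 and 0.973.

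Ranks 1 and 83 were adjacent, at rows 11761 and 11762, with r = 0.503, between the 2 identifiers that the rule left out, at rows 11760 and 11763. Rank 1 had r = 0.832 with the first of these and 0.555 with the second, and rank 83 had 0.396 and 0.891. Each member thus went most closely with the left-out feature beside it. The best match of rank 147 was an adjacent row that is not a member, with r = 0.969. Whether reads are shared between near-identical copies was not tested.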

How the data were processed

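H3K36me3 CUT&Tag was analysed in 93 lymphoblastoid cell lines, 1 library each and 1 group; no comparison between groups was made. The deposited counts are whole-number read counts per feature. The deposited score table holds normal scores from -3.92 to 3.92, with identical sorted values in all 93 libraries, and was used only beside the counts. The submitters' processing notes list HISAT2 2.2.1, bedtools and hg38 without saying what each did. The interval counted for a feature was not given in the sources used here, so a level is per feature and not per length. Members, groups and tests were chosen with earlier results of these data known.

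Association tests used edgeR 4.0.16 in R 4.3.3 (quasi-likelihood, TMM factors, Benjamini-Hochberg adjustment at 0.05) on features that reached 10 counts in 47 or more libraries. Log2 CPM used a prior count of 2. Cell cycle sets were the 100 leading genes per phase from the marker pairs of scran 1.30.0, matched by identifier and chosen after the files had been seen. Symbol lists for plasma cell, NF-kB and proliferation levels, cell type markers, lengths and promoters could not be applied, since 0 identifiers matched a symbol. The rule for named features was reduced to 4 identifiers, the 2 highest ratios and the 2 highest values of median over 10th percentile, and other members are named by rank, chosen after their values were seen. A planned edgeR goodness-of-fit test of spread, and permutation tests of raised members per line, rest on the values that chose the members and are not reported. Since each line has 1 library, p-values measure the spread between lines and technical differences together. The test was checked on simulated counts along the G2M level. It recovered 96 of 100 planted changes of 0.3 log2 per SD and 6 of 100 of 0.1. There were 4 false calls, with 13914 features tested. Simulated features had the spread usual for their level, while members were chosen for wide spread, so recovery among members was not measured. A member that did not pass is therefore not shown to be unrelated to a measure. Alternatives were DESeq2 1.42.0, other scaling, filters, covariates, folds and percentiles, thinning to 2842955 counts, and leaving libraries out. Python 3.11.15 was used for the other steps.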

Additional observations from a re-analysis of the deposited data

How the results depend on the processing

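Of the 150 members, 105 to 148 stayed among the highest 150 under 8 changes of percentile, offset, scaling and minimum count, 132 without the 10 shallowest libraries, and, chosen after seeing the data, 115 after thinning and 143 without the line with most raised members. With the rows after 1900 and up to 3200 kept in, 89 stayed and 61 places went to those rows. With a minimum mean count of 200, the 42 members under it were lost by construction. Raised members per line had r = -0.329 with library total over 2 times the median and -0.236 over 5 times, against -0.117 over 3 times; it was 0.0368 within the 46 shallower libraries. With dynamic range, r was -0.0543 over 2 times the median and -0.129 within the shallower libraries, against 0.0221. Members associated with the G1, S and G2M levels numbered 78, 42 and 71 without terms for library total and dynamic range (76%, 54.9% and 73.4% of all features), and 3, 1 and 2 with 5 principal components added (4.25%, 3.06% and 3.32%), against 39, 6 and 35 (50.1%, 11.7% and 34.4%); the cause of each of these differences was not tested. Without the 10 shallowest libraries, 2 members in place of 5 were higher in deeper libraries, and 40 in place of 46 lower. By the limits set, 47 recomputed values, some of them given above, counted as unchanged. Correlations of raised members per line kept direction and side of the p threshold. Counts of members, both directions together, stayed within 1.5 times. For the median correlation between members the limit was a change under 1 SD of the pair correlations, 0.283, which is wide. The 47 rest in part on the goodness-of-fit and permutation tests that are not reported. Levels tied to symbol lists were not run. No paired analysis was possible because the lines form a single set with no replicate numbers to share.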

Other observations

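The deposited scores followed the counts of the members. Spearman's correlation between score and CPM across lines had a median of 0.975 over the 150 members, from 0.952 to 0.988. Where a member lay over 3 times its median, the score had a median of 2.47 and ran from 0.64 to 3.92, against a median of -0.14 in the other pairs of member and line.

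In 5 blocks of table rows, chosen after their levels had been seen, the members made up 0.89% to 1.88% of ranked features. The differences between blocks were not tested.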
